A study of Homo sapiens with 6 samples.

Results

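Replication-dependent histone genes encode the core histones H2A, H2B, H3 and H4 and the linker histone H1 that package newly made DNA during S phase. Here they were taken as the rows of a human gene table whose symbol starts with HIST1H, HIST2H, HIST3H or HIST4H, which gave 70 of the 18806 genes in the table. By class, these were 6 H1, 17 H2A, 18 H2B, 14 H3 and 15 H4 genes. The reference annotation placed 55 of them on chromosome 6, 14 on chromosome 1 and 1 on chromosome 12.

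The levels came from poly(A)-selected RNA sequencing of Mono-Mac-6, an established human acute myeloid leukaemia line that carries the MLL-AF9 fusion gene. All 3 groups descended from 1 clone that expresses Cas9 and received a lentiviral guide RNA: sgNS, the control guide, or sgMETTL1.3 or sgMETTL1.6, both aimed at METTL1, which encodes the catalytic subunit of an RNA N7-methylguanosine methyltransferase best known for its action on tRNA. Each group had 2 libraries, 6 in all, made from cells collected about 8 to 10 days after transduction and selected with blasticidin and hygromycin B. The names of all 6 value columns also hold the letters EV, which are not explained in the sources used here. Nothing in the labels states that replicates came from separate cultures, and the p-values below therefore cover the spread between libraries alone, technical spread included. Levels were in TPM, each gene's length-corrected share of its library's transcripts, from which the sequencing depth is unknown.

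METTL1 mRNA, the check of the targeted gene, stood at 15.4 and 13.9 TPM with the control guide, 18.3 and 16.6 TPM in the libraries labelled sgMETTL1.3, and 11.2 and 11.7 TPM in the libraries labelled sgMETTL1.6. It was 0.24 higher on the log2(TPM + 1) scale in the sgMETTL1.3 libraries and 0.33 lower in the sgMETTL1.6 libraries (change -0.33; limma with Benjamini-Hochberg adjustment, adjusted p = 0.011 and 0.0017). An mRNA level does not measure the protein, and the groups are named by their labels throughout. Of 8 myeloid markers 7 averaged at least 1 TPM, CD14 being the exception at 0.463 TPM, while CD3E, MS4A1 and HBB were at 0 in every library. Of 9 markers of other cells, KRT18 and PECAM1 averaged over 1 TPM. The myeloid markers summed to 13850 and 13310 TPM in controls and to 11190 to 12820 TPM with the guides, a sum that is mostly LYZ (10440 TPM on average). With the guides pooled, LYZ, CD68, ITGAM, FLT3 and MPO were called lower, SPI1 was 0.20 higher and CD33 did not pass. The markers of other cells summed to 87.9 and 91.1 TPM in controls, 112.6 and 112.2 in sgMETTL1.3 and 84.4 and 82.3 in sgMETTL1.6. This sum is mostly PECAM1 (80.4 TPM on average), which was 0.45 higher in sgMETTL1.3, so it largely follows that gene. KRT18 was called lower with each guide, with a change of -0.41 in sgMETTL1.3 and -0.34 in sgMETTL1.6. The part of these shifts in the results below was not tested.

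Most mRNAs end in a poly(A) tail, but the mRNAs of these histone genes usually end a few bases after a conserved stem-loop, which is bound by the stem-loop binding protein SLBP, and carry no tail. Some of the genes also use a polyadenylation signal further downstream and yield tailed mRNAs, especially in cells that leave the cell cycle. Selection on poly(A) therefore samples tailed transcripts, and the values below are levels of histone mRNA in that selected fraction.

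The stem-loop is what sets these transcripts apart, so the forms found in the members' annotated transcripts are shown first. The sense strand of the GENCODE 29 transcripts was searched for the 16 letters GGNNNTTTTNANNNCC with stem bases that pair, and the 4 bases of the loop are in capitals, 5′ to 3′.
HIST1H4J: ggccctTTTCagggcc
HIST2H4A: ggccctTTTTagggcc
HIST2H2BE: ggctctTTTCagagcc
HIST1H2BD: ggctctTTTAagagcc
The H4 form and the H2B form differ in the stem, and the last base of the loop is C, T or A. A stem-loop was found in 30 of the 70 members and in 0.188% of all protein-coding genes in that annotation. In HIST1H4J the annotated transcript ends 6 bases after the stem-loop, the length of a tail-less histone mRNA. In HIST2H2BE the transcript runs on for 1729 bases, with the polyadenylation signal AATAAA starting 24 bases from its end, and in HIST1H2AC it runs on for 1114 bases. Transcripts that run over 100 bases past the stem-loop were annotated for 15 of the 45 members with a mean of at least 1 TPM and for 6 of the 25 members below it. Many of the remaining models hold only the coding sequence, HIST1H2BK among them, so that no match says only that these letters are not in the annotated transcript.

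The upstream sequences carry the usual elements of histone promoters. RefSeq promoters (GRCh38.p14) were matched for 60 of the 70 members, and the 250 bases before the start are printed here for the member with the highest level of H2B, of H1 and of H4. Capitals mark each match on either strand to the TATA box (TATAAA), the box bound by NF-Y (CCAAT) and the octamer (ATTTGCAT), and neighbouring matches can overlap.
HIST1H2BK, chr6:27146859-27147108, minus strand: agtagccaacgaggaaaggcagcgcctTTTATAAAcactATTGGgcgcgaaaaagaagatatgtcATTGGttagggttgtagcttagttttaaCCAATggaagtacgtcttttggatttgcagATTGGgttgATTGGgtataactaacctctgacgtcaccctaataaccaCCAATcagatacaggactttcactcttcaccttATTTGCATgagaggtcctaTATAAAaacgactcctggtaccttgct
HIST1H1C, chr6:26056471-26056720, minus strand: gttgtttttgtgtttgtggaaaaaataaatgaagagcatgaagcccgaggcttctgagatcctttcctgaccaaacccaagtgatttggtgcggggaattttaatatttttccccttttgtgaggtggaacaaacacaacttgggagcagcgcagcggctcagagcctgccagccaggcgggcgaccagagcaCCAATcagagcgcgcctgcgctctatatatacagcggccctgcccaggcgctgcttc
HIST1H4J, chr6:27823842-27824091, plus strand: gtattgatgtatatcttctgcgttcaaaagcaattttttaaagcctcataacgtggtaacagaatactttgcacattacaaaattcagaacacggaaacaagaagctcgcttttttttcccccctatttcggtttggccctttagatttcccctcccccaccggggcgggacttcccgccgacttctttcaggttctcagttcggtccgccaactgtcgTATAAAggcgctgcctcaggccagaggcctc
TATAAA was found in 66.7% of the members' promoters and 10.7% of all 35116 RefSeq promoters in the table. CCAAT was found in all of the matched promoters of the other classes (6 of H1, 16 of H2A, 13 of H2B and 12 of H3 genes) and in 3 of 13 H4 promoters, against 32% of all promoters. The octamer ATTTGCAT, to which the factor encoded by POU2F1 binds, was found in 11 of 16 H2A and 9 of 13 H2B promoters. It was found in 1 of 12 H3 promoters and in no H1 or H4 promoter, against 1.63% of all promoters. The H3 match was in HIST1H3D, whose window, chr6:26199294-26199543, is the same as that of HIST1H2AD. HIST1H3D has 2 RefSeq starts, and its GENCODE bounds are 26196840-26197250. The H3 counts of each element thus include the promoter of an H2A gene. Windows of H2A and H2B genes that lie head to head can also overlap. Those of HIST2H2BE (chr1:149886683-149886932) and HIST2H2AC (chr1:149886668-149886917) are an example. The same bases, matched on either strand, then count for both genes, so the H2A and H2B counts are not independent. All are matches of letters, not measured binding.

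The members differed widely in level. A mean of at least 1 TPM was reached by 45 of the 70: 4 of 6 H1, 13 of 17 H2A, 10 of 18 H2B, 8 of 14 H3 and 10 of 15 H4 genes. The members just inside this limit were HIST1H3A at a mean of 1.03 TPM, HIST1H3I at 1.06 and HIST1H3B at 1.21. Those just outside were HIST2H3D at 0.953, HIST3H2BB at 0.937 and HIST1H2BH at 0.87 TPM. Of the 25 low members, 7 were listed at 0 in every library (HIST1H2AA, HIST1H2AJ, HIST1H2BA, HIST1H2BI, HIST1H3G, HIST1H4F and HIST1H4G), and the highest value of any low member in any library was 1.87 TPM. The low members were not tested. More libraries carry a METTL1 guide than the control guide, so the limit on the mean admits rises with the guides more readily than falls. HIST1H3A, HIST1H3B and HIST1H2AH averaged 0.36, 0.695 and 0.945 TPM in controls and reached the limit through the guide libraries. HIST1H2BH averaged 1.6 TPM in controls, 0.495 in sgMETTL1.3 and 0.515 in sgMETTL1.6, and was left out.

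A single gene dominated the sum. HIST1H2BK, now H2BC12, an H2B gene at chr6:27146418-27146798 on the minus strand (GRCh38, coding exon in GENCODE 29), held 43.4% of the TPM of all members averaged over the libraries. HIST1H1C, now H1-2, which encodes a linker histone that most somatic cells make, followed with 8.45%, and HIST1H2AC with 4.93%. The 7 rows with the highest means together held 72.8%. All 70 members made up 0.0859% of all TPM.

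**Figure D1:**
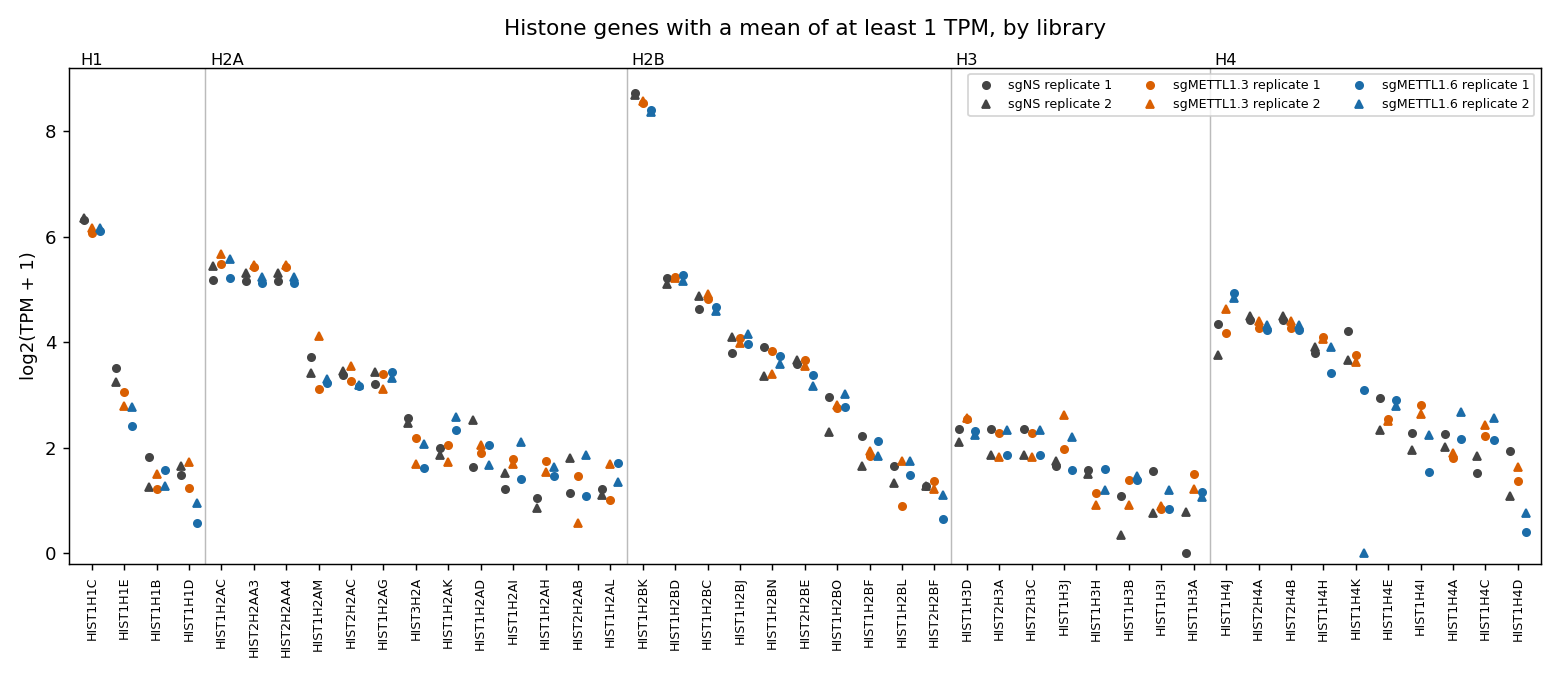
Level of each of the 45 histone genes averaging 1 TPM or more in each of the 6 libraries, as log2(TPM + 1), grouped by class and ordered by mean within it. Circles are replicate 1 and triangles replicate 2. HIST1H2BK stands above all others in every library.

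Near-identical copies limit what can be read gene by gene. HIST2H2AA3 and HIST2H2AA4, HIST2H4A and HIST2H4B, and HIST2H3A and HIST2H3C had the same value as each other in every library, so the 45 rows tested hold 42 distinct ones. In the annotated transcripts, HIST1H4K has no 50-base word of its own, and every one of its words also lies in HIST1H4J. HIST1H3D likewise has 0% words of its own, and HIST1H2BK has 25.9%, with 61.5% of its words shared with H2BFS. HIST1H3J has 59.1% and shares 40.9% with HIST1H2AM, which has 13.7% of its own. HIST1H1C, HIST1H1E, HIST1H1D, HIST1H4C and HIST1H3A each have 100% words of their own. Reads from shared words can be split between copies in ways that the table does not show.

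Summed over all members, the level was 914 and 893 TPM in the control libraries, 859 and 894 in sgMETTL1.3 and 787 and 807 in sgMETTL1.6. The sgMETTL1.6 libraries were the lowest, and one sgMETTL1.3 library overlapped the controls. H2B gave 536 and 519 TPM in controls, 486 and 494 in sgMETTL1.3 and 448 and 436 in sgMETTL1.6, below the controls in all 4 guide libraries. Without HIST1H2BK, however, the H2B sum was 115 and 111 TPM in controls, 119 and 115 in sgMETTL1.3 and 111 and 109.8 in sgMETTL1.6, with overlapping groups. H1 summed to 93.8 and 94.2 TPM in controls and to 75.1 to 80.7 TPM in the 4 guide libraries, with no overlap. The H2A sum was 150.2 and 168 TPM in controls and 147 to 186 TPM with the guides, the H4 sum 95.9 to 112 TPM in controls and 98.3 to 112 TPM with the guides, and the H3 sum 15.7 to 22.3 TPM in controls and 18.4 to 24.2 TPM with the guides. These 3 sums overlapped between groups. No test was run on the sums, which are levels in the poly(A)-selected fraction. In such bulk RNA, fewer cells in S phase, less histone mRNA per cell and a smaller tailed share of it cannot be told apart.

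**Figure D2:**
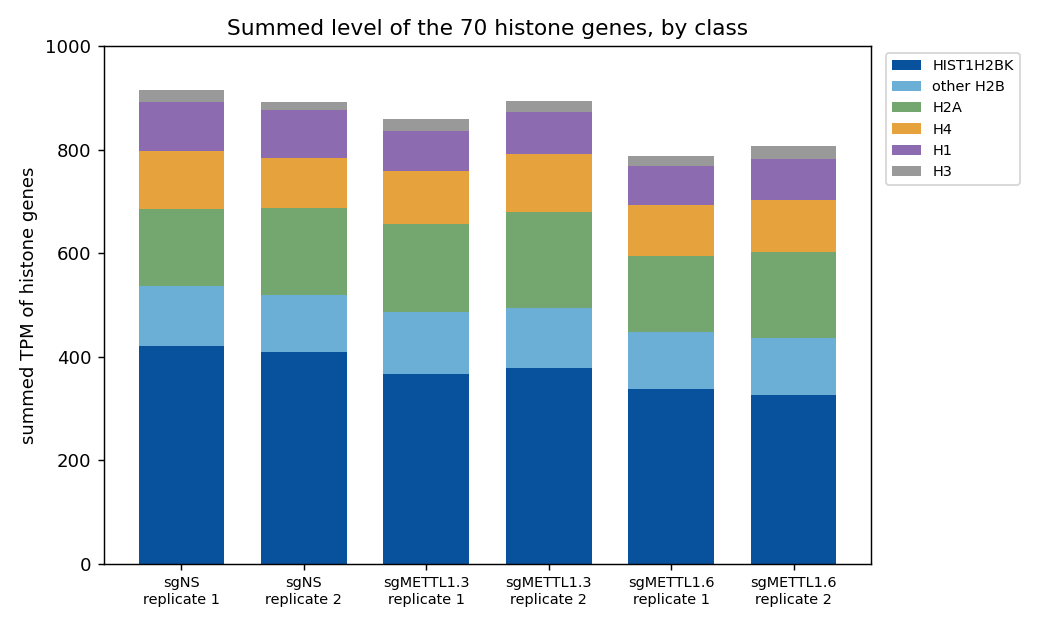
Summed TPM of the 70 histone genes in each of the 6 libraries, stacked by class, with HIST1H2BK drawn apart from the other H2B genes. Most of the difference in height between control and sgMETTL1.6 libraries lies in the HIST1H2BK segment, 420.4 and 408 TPM against 337 and 326 TPM.

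Each gene was compared between groups by limma on log2(TPM + 1) over the 10911 genes that averaged 1 TPM or more, and a change was called at a Benjamini-Hochberg adjusted p under 0.05. Fold changes on this scale understate those of low genes. The METTL1 guides were first pooled and set against the control, a comparison that a gene can pass without passing with each guide. Here 15 of the 45 members passed (33.3%), against 59.4% of all genes tested. 5 were higher and 10 lower, where 32.6% of all genes were called higher and 26.8% lower. This split was not stable: it was 8 higher and 6 lower with quantile normalization, 8 and 6 without sgNS replicate 1, 7 and 7 without sgMETTL1.3 replicate 1, and 10 and 8 without sgMETTL1.6 replicate 1. Over all genes, 3556 higher and 2928 lower became 3150 and 3218 with median-ratio scaling. The members' median change was -0.00, beside 0.02 over all genes. Members sat lower in level than other genes, with a median of 3.93 TPM against 27.1 TPM, and the standard errors of their changes were larger. Among members of 1 to 5 TPM, 33.3% were called and 40.3% of all genes of that level, with a median SE of 0.15 against 0.09. Among members of at least 20 TPM, 3 of 8 were called, or 37.5%, against 66.9% of all genes of that level, with a median SE of 0.05 against 0.04. The part of level and replicate spread in the smaller share of calls was not tested.

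Among the linker histones, 3 of 4 tested members fell with the guides pooled and none rose, with a median change of -0.33. Of these, 2 passed with each guide, HIST1H1C and HIST1H1E. HIST1H1C (chr6:26055787-26056428, minus strand) measured 78.9 and 81.2 TPM in controls, 66.2 and 70.4 in sgMETTL1.3 and 68.2 and 70.5 in sgMETTL1.6. All 4 guide libraries lay below both controls, and the change was -0.23 with sgMETTL1.3 and -0.20 with sgMETTL1.6 (SE 0.04 for each; adjusted p = 0.00076 and 0.0020). HIST1H1E, now H1-4 (chr6:26156354-26157107, plus strand), another linker histone, had 10.3 and 8.54 TPM in controls, 7.31 and 5.88 in sgMETTL1.3 and 4.3 and 5.86 in sgMETTL1.6. Its groups did not overlap either, and it changed by -0.46 with sgMETTL1.3 and -0.79 with sgMETTL1.6 (SE 0.13 for each; adjusted p = 0.0068 and 0.00019). The sgMETTL1.3 call on HIST1H1E was lost without sgNS replicate 1 (adjusted p = 0.083) or sgMETTL1.3 replicate 2 (adjusted p = 0.074).

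HIST1H1D, now H1-3, also encodes a linker histone and fell with sgMETTL1.6. It read 1.78 and 2.16 TPM in controls, 1.35 and 2.3 in sgMETTL1.3 and 0.48 and 0.94 in sgMETTL1.6, so that only the sgMETTL1.6 libraries lay below the controls. The change was -0.81 with sgMETTL1.6 (SE 0.17; adjusted p = 0.0014) and -0.09 with sgMETTL1.3 (adjusted p = 0.66). The difference between the guides was itself past the test, at -0.72 (SE 0.17; adjusted p = 0.0099), but not without sgMETTL1.3 replicate 2 (adjusted p = 0.095) or sgMETTL1.6 replicate 1 (adjusted p = 0.061). The call with the guides pooled was lost without sgNS replicate 2 (-0.36, adjusted p = 0.15). HIST1H1B, the fourth, ranged from 1.32 to 2.56 TPM over the 6 libraries with overlapping groups and did not pass.

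Of 13 tested H2A genes, 1 rose and 1 fell with the guides pooled, and the median change was 0.08. HIST1H2AH, now H2AC12 (chr6:27147129-27147515, plus strand), rose: 1.07 and 0.82 TPM in controls, 2.34 and 1.92 in sgMETTL1.3 and 1.77 and 2.11 in sgMETTL1.6. Every guide library was above both controls, and the change was 0.69 and 0.60 (SE 0.12 for each; adjusted p = 0.00032 and 0.0012). HIST1H2AH averaged 0.945 TPM in controls, so it too reached the limit for testing through the guide libraries. With a pseudocount of 0.1 in place of 1, the change with the guides pooled was 1.03 in place of 0.64. HIST3H2A, now H2AC25 (chr1:228456979-228457873, minus strand), fell from 4.88 and 4.56 TPM to 3.52 and 2.23 in sgMETTL1.3 and 2.06 and 3.22 in sgMETTL1.6. The groups did not overlap, and the change was -0.58 and -0.67 (SE 0.16 for each; adjusted p = 0.0069 and 0.0035). Without sgMETTL1.3 replicate 2 the sgMETTL1.3 change was -0.34 and no longer passed (adjusted p = 0.092), and without sgMETTL1.6 replicate 1 the sgMETTL1.6 change was -0.44.

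No other H2A gene passed with each guide. HIST1H2AC had 35.4 and 42.4 TPM in controls, 43.8 and 49.99 in sgMETTL1.3 and 36.2 and 46.4 in sgMETTL1.6. Its groups overlapped between control and sgMETTL1.6, and only the sgMETTL1.3 change passed, at 0.27 (SE 0.10; adjusted p = 0.041). That call was lost without sgNS replicate 1 (change 0.14) or sgMETTL1.3 replicate 2 (0.17). It was also lost with quantile normalization, with median-ratio scaling, without ribosomal protein genes and with no variance trend. The identical rows HIST2H2AA3 and HIST2H2AA4 each stood at 34.7 and 38.4 TPM in controls, 41.7 and 43.0 in sgMETTL1.3 and 34.0 and 36.6 in sgMETTL1.6. The sgMETTL1.3 libraries were the highest, 0.21 above control (SE 0.06; adjusted p = 0.0079; not without sgNS replicate 1, adjusted p = 0.11, or sgMETTL1.3 replicate 2, adjusted p = 0.054). HIST1H2AK read 3.0 and 2.66 TPM in controls, 3.16 and 2.3 in sgMETTL1.3 and 4.04 and 5.02 in sgMETTL1.6, and rose by 0.53 with sgMETTL1.6 (SE 0.12; adjusted p = 0.0032). HIST2H2AC was lower with sgMETTL1.6 by a change of -0.23 (adjusted p = 0.045), a call lost without any 1 of the sgNS or sgMETTL1.6 libraries. It was also lost with quantile normalization and with median-ratio scaling. The other 6 H2A genes, HIST1H2AM, HIST1H2AG, HIST1H2AD, HIST1H2AI, HIST2H2AB and HIST1H2AL, averaged 1.58 to 10.5 TPM and passed with neither guide.

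Among the 10 tested H2B genes, HIST1H2BK and HIST2H2BE fell with the guides pooled, none rose, and the median change was -0.00. HIST1H2BK passed with each guide and HIST2H2BE with sgMETTL1.6 alone. HIST1H2BK averaged 414 TPM in controls (SD 8.62, n = 2), 373 in sgMETTL1.3 (SD 8.51, n = 2) and 332 in sgMETTL1.6 (SD 7.93, n = 2). The 3 groups followed one another without overlap, from 420.4 and 408 TPM over 367 and 379 to 337 and 326. The change was -0.15 with sgMETTL1.3 and -0.32 with sgMETTL1.6 (SE 0.03 for each; adjusted p = 0.0016 and 5.2e-06), and -0.17 between the guides (SE 0.03; adjusted p = 0.0045). This gene kept its calls against the control in every alternative run.

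HIST2H2BE, whose annotated transcript reaches far past the stem-loop shown above, had 10.9 and 11.7 TPM in controls, 11.7 and 10.7 in sgMETTL1.3 and 9.36 and 7.96 in sgMETTL1.6. Only the sgMETTL1.6 libraries were low. The change was -0.35 with sgMETTL1.6 (SE 0.08; adjusted p = 0.0027) and -0.01 with sgMETTL1.3 (adjusted p = 0.91), and the difference between guides was -0.34 (adjusted p = 0.011; lost without sgMETTL1.3 replicate 1, adjusted p = 0.080, or sgMETTL1.6 replicate 2, adjusted p = 0.059). With the guides pooled the change of -0.18 (adjusted p = 0.038) was lost without sgNS replicate 1 or 2, sgMETTL1.3 replicate 2 or sgMETTL1.6 replicate 2 (adjusted p = 0.068, 0.23, 0.10 and 0.10). HIST2H2BF also passed with sgMETTL1.6 alone, at 1.43 and 1.41 TPM in controls against 0.57 and 1.16, a change of -0.39 (adjusted p = 0.038; -0.16 and adjusted p = 0.38 without sgMETTL1.6 replicate 1, and adjusted p = 0.13 and 0.11 without either control). HIST1H2BD, which has the other loop form, showed 36.1 and 33.3 TPM in controls, 36.7 and 35.9 in sgMETTL1.3 and 37.4 and 34.9 in sgMETTL1.6. These groups overlapped, with a change of 0.06 (SE 0.05; adjusted p = 0.30). HIST1H2BC, HIST1H2BJ and HIST1H2BN, at 25.9, 15.2 and 11.6 TPM on average, did not pass against the control, nor did HIST1H2BO, HIST1H2BF and HIST1H2BL.

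**Figure D3:**
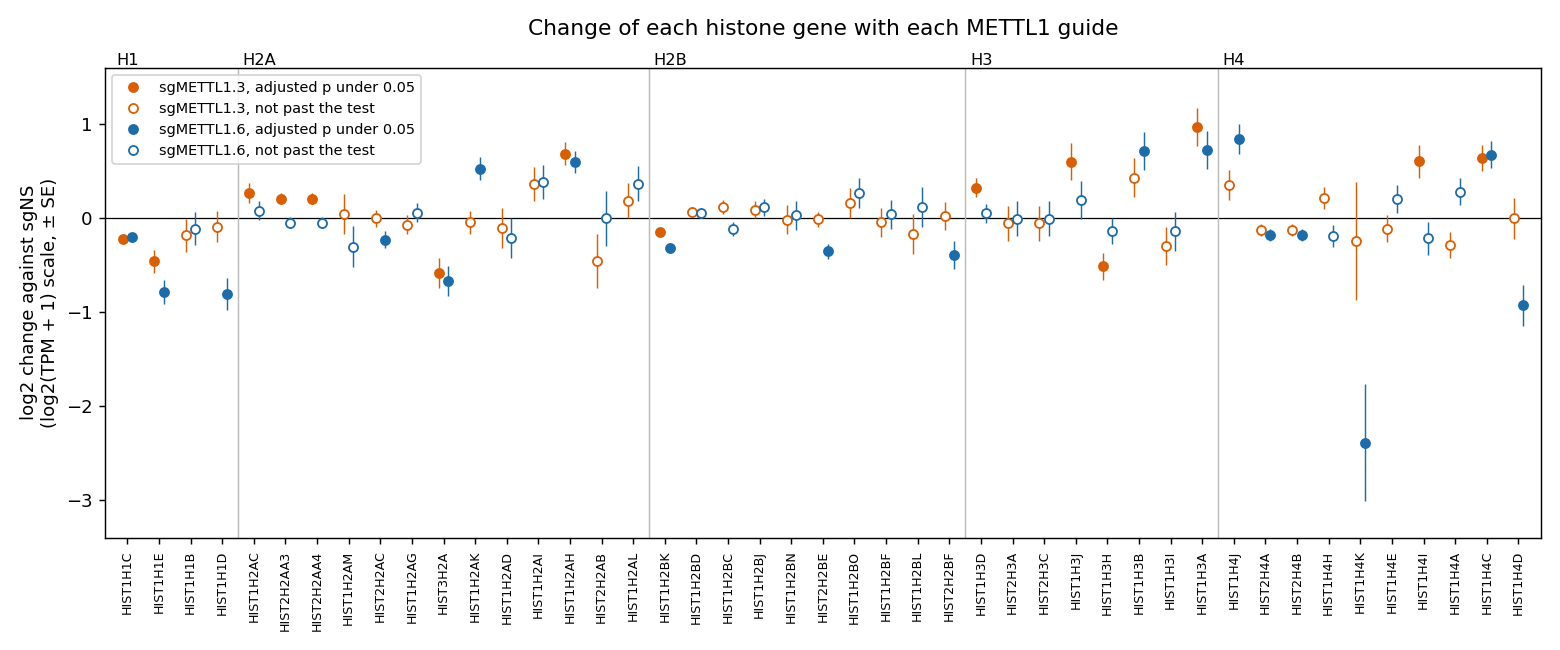
Change of each of the 45 tested histone genes against the control, for sgMETTL1.3 (orange) and sgMETTL1.6 (blue), on the log2(TPM + 1) scale, with bars of 1 SE. Filled points passed an adjusted p under 0.05. HIST1H1C, HIST1H1E, HIST3H2A and HIST1H2BK are filled below zero for both guides, and HIST1H2AH, HIST1H3A and HIST1H4C above it.

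H3 genes were low in this fraction, none above 4.15 TPM on average. Of 8 tested, 2 rose and 1 fell with the guides pooled, and the median change was 0.08. Those that rose, HIST1H3A and HIST1H3B, averaged 0.36 and 0.695 TPM in controls. They were tested only because of their level in the guide libraries, so the filter favoured these rises. HIST1H3A alone passed with each guide. HIST1H3A (chr6:26020490-26020900, plus strand) was listed at 0 in sgNS replicate 1 and at 0.72 TPM in sgNS replicate 2, with 1.83 and 1.33 in sgMETTL1.3 and 1.23 and 1.1 in sgMETTL1.6. The guide libraries were all above the controls, by 0.85 with the guides pooled (SE 0.17; adjusted p = 0.00099), but by 0.45 without sgNS replicate 1 (adjusted p = 0.025), when the change with sgMETTL1.6 alone was 0.33 and did not pass (adjusted p = 0.13). HIST1H3B rose by 0.57 with the guides pooled (SE 0.18; adjusted p = 0.014), from 1.11 and 0.28 TPM to 0.88 to 1.75 TPM with the guides. Its groups overlapped, and the change was 0.21 without sgNS replicate 2 (adjusted p = 0.33) and 0.93 without sgNS replicate 1.

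HIST1H3H went the other way, with 1.98 and 1.83 TPM in controls, 1.2 and 0.88 in sgMETTL1.3 and 2.03 and 1.3 in sgMETTL1.6. Only sgMETTL1.3 lay below the controls, with a change of -0.51 (SE 0.14; adjusted p = 0.0065; 0.059 without sgMETTL1.3 replicate 2). The pooled change of -0.33 (adjusted p = 0.033) was lost without either control, without sgMETTL1.3 replicate 2 or without sgMETTL1.6 replicate 2 (adjusted p = 0.17, 0.086, 0.085 and 0.098). HIST1H3D had 4.12 and 3.3 TPM in controls and 4.83 and 4.92 in sgMETTL1.3, a change of 0.32 (adjusted p = 0.012; 0.14 without sgNS replicate 2 and 0.052 without sgMETTL1.3 replicate 2), in a gene whose annotated words all lie elsewhere too. HIST1H3J rose by 0.60 with sgMETTL1.3 (adjusted p = 0.020), and the change without sgMETTL1.3 replicate 2 was 0.28 (adjusted p = 0.25), that without sgMETTL1.3 replicate 1 was 0.92, and without sgNS replicate 1 the adjusted p was 0.088. HIST1H3J shares 40.9% of its annotated words with HIST1H2AM. In sgMETTL1.3 replicates 1 and 2, HIST1H3J read 2.96 and 5.17 TPM and HIST1H2AM 7.64 and 16.3 TPM. The identical rows HIST2H3A and HIST2H3C, and HIST1H3I, did not pass.

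Among the genes for the core histone H4, some rose while others fell. Of 10 tested, 2 rose and 3 fell with the guides pooled, and the median change was 0.00. HIST1H4C alone passed with each guide, and no H4 gene was called lower with sgMETTL1.3. HIST1H4C, now H4C3 (chr6:26103876-26104310, plus strand), rose from 1.88 and 2.59 TPM to 3.69 and 4.36 in sgMETTL1.3 and 3.45 and 4.92 in sgMETTL1.6. Each guide library was above both controls, and the change was 0.64 and 0.67 (SE 0.14 for each; adjusted p = 0.0015 and 0.0014). The identical rows HIST2H4A and HIST2H4B, which carry the T-ending loop, fell slightly: 20.4 and 21.5 TPM in controls, 18.2 and 20.1 in sgMETTL1.3 and 17.9 and 19.0 in sgMETTL1.6. All guide libraries lay below the controls, by -0.15 with the guides pooled (SE 0.06; adjusted p = 0.033), but the call was lost without sgNS replicate 1 or 2, sgMETTL1.3 replicate 1 or sgMETTL1.6 replicate 1 (adjusted p = 0.057, 0.23, 0.11 and 0.066).

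HIST1H4J (chr6:27824108-27824480, plus strand) and HIST1H4K (chr6:27831216-27831527, minus strand) went in opposite directions. HIST1H4J measured 19.3 and 12.5 TPM in controls, 16.9 and 23.8 in sgMETTL1.3 and 29.6 and 27.7 in sgMETTL1.6, and its sgMETTL1.6 libraries were the highest. It rose by 0.84 with sgMETTL1.6 (SE 0.16; adjusted p = 0.00067; 0.55 without sgNS replicate 2) and by 0.60 with the guides pooled (adjusted p = 0.0022; 0.30 and adjusted p = 0.060 without sgNS replicate 2). HIST1H4K read 17.6 and 11.6 TPM in controls, 12.6 and 11.3 in sgMETTL1.3, and 7.56 and a listed 0 in sgMETTL1.6. Both sgMETTL1.6 libraries were below the rest, with a change of -2.39 (SE 0.63; adjusted p = 0.0064) that was -0.84 without sgMETTL1.6 replicate 2 and -3.94 without sgMETTL1.6 replicate 1. With the guides pooled the change of HIST1H4K was -1.32 and did not pass (adjusted p = 0.051). Since every 50-base word of HIST1H4K also lies in HIST1H4J, the sum of the pair is given as well: 36.8 and 24.1 TPM in controls, 29.5 and 35.05 in sgMETTL1.3 and 37.1 and 27.7 in sgMETTL1.6. The summed values overlapped among all 3 groups.

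**Figure D4:**
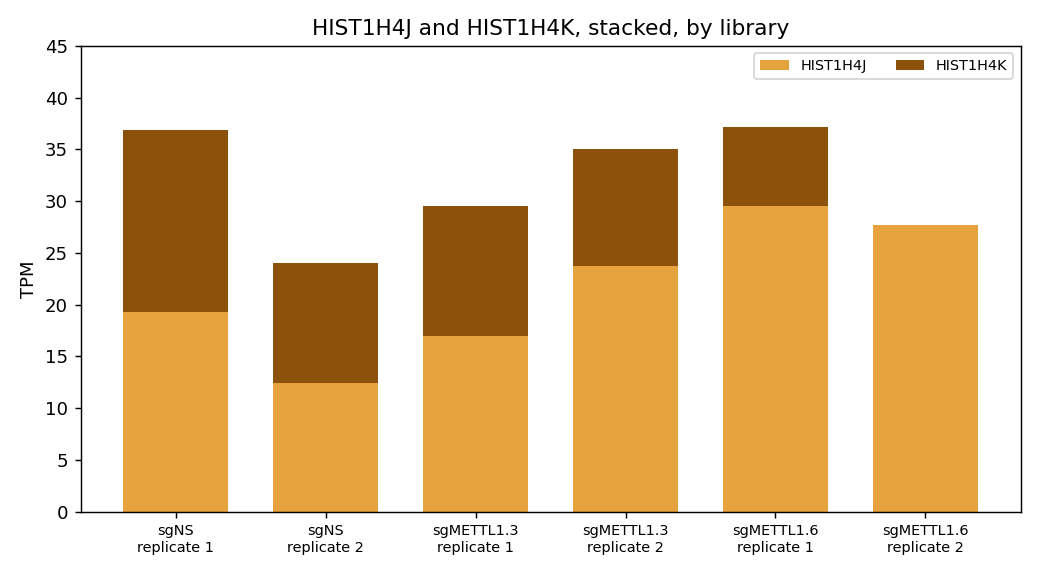
TPM of HIST1H4J and HIST1H4K, stacked, in each of the 6 libraries. The upper segment shrinks to 7.56 and 0 TPM in the sgMETTL1.6 libraries, while the stacked heights run from 24.1 to 37.1 TPM and overlap between groups.

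HIST1H4D fell with sgMETTL1.6, from 2.83 and 1.12 TPM in controls to 0.33 and 0.69, a change of -0.93 (SE 0.22; adjusted p = 0.0032; -0.50 without sgNS replicate 1). Its pooled change of -0.46 (adjusted p = 0.048) was lost without sgNS replicate 1 (-0.04), sgMETTL1.3 replicate 1 or sgMETTL1.6 replicate 1, and was -0.89 without sgNS replicate 2. The pooled call was lost in 10 of 16 alternative runs, quantile normalization, median-ratio scaling and the replicate block among them. HIST1H4I was higher with sgMETTL1.3, at 5.99 and 5.2 TPM against 3.83 and 2.88 in controls, a change of 0.60 (SE 0.18; adjusted p = 0.010; 0.096 without sgNS replicate 2 and 0.062 without sgMETTL1.3 replicate 1). HIST1H4H, HIST1H4E and HIST1H4A did not pass against the control.

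Taken by guide, 14 of the 45 members passed with sgMETTL1.3 (9 higher and 5 lower), and 18 with sgMETTL1.6 (6 higher and 12 lower). Over all genes, 58.5% passed with sgMETTL1.3, 34.3% higher and 24.2% lower, and 51% with sgMETTL1.6, 25.7% higher and 25.3% lower. The members' shares were 31.1% and 40%. The sgMETTL1.6 split was 10 higher and 8 lower without sgMETTL1.6 replicate 1, and 6 and 8 with quantile normalization. The sgMETTL1.3 split was 8 and 7 with median-ratio scaling, under which the calls over all genes went from 3743 higher and 2642 lower to 3080 and 3182. The sgMETTL1.3 count was 9 without sgMETTL1.3 replicate 2, 5 higher and 4 lower. Both comparisons share the control libraries.

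The guides were also compared directly, in the same fit, so that the control libraries enter the estimate of spread but not the difference. Here 13 members passed (28.9%), 3 higher and 10 lower with sgMETTL1.6, against 23% of all genes, 7.23% higher and 15.8% lower. Median-ratio scaling gave 2 members higher and 7 lower, and over all genes 1102 higher and 809 lower in place of 789 and 1721. The members' median was -0.05, beside the -0.05 over all genes. HIST1H4I stood 0.82 lower in sgMETTL1.6, at 1.92 and 3.76 TPM against 5.99 and 5.2 (change -0.82; SE 0.18; adjusted p = 0.0067; -0.47 without sgMETTL1.6 replicate 1). HIST1H4D differed by -0.92 (adjusted p = 0.010), which was lost without sgMETTL1.3 replicate 2 (adjusted p = 0.067). HIST1H2AK was 0.57 higher in sgMETTL1.6 (adjusted p = 0.0065; 0.062 without sgMETTL1.3 replicate 2), and HIST1H4A also 0.57 higher (adjusted p = 0.014; 0.073 without sgMETTL1.3 replicate 1 and 0.31 on the log2 scale, adjusted p = 0.095, without sgMETTL1.6 replicate 2). The sgMETTL1.6 libraries were also lower in HIST1H2BC, HIST1H4H, HIST1H4K, HIST2H2AA3 and HIST2H2AA4 and higher in HIST1H4J, each a call that ended without sgMETTL1.3 replicate 1 or 2. Those on HIST1H2BC, HIST1H4H, HIST1H4K and HIST1H4J also ended with quantile normalization and with median-ratio scaling, so they depend on the scaling too. The count of members was 6 without sgMETTL1.3 replicate 2, 3 higher and 3 lower, and 15 with only the guide libraries fitted.

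Other histone genes and the machinery around them were read from 5 lists, as counts and medians. Most, though not all, of the variants listed as replication-independent are made outside S phase as well, from ordinary tailed mRNAs. With the guides pooled, to which all values on these lists refer, 3 of 11 tested rose and 6 fell (81.8% called, against 59.4% of all genes), with a median of -0.25 beside 0.02 over all genes. H1F0, a linker histone of resting and differentiated cells, changed by -0.61 (SE 0.05) and H1FX, another linker histone, by -0.38 (SE 0.03). H3F3B, one of the genes for variant H3, changed by -0.25, H2AFZ by -0.25 and H2AFJ by -0.43. H2AFX, which is phosphorylated at DNA breaks, rose by 0.24, H2AFY by 0.18 and CENPA, the centromeric H3, by 0.30. H2AFB2, at 2.25 TPM on average and with near copies in the genome, changed by -1.73. H3F3A and H2AFV did not pass.

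Of 25 tested factors that act on histone genes and their mRNAs, 10 were higher, 4 lower and 11 did not pass, with a median of 0.07. The share called, 56%, was near the 59.4% of all genes. Median-ratio scaling gave 8 higher and 7 lower. The lower 4 were NPAT, the coactivator of histone genes at -0.28, POU2F1 at -0.19, CASP8AP2, which recruits the processing complex, at -0.18, and SLBP at -0.10 (adjusted p = 0.037). SRRT, a partner of the cap-binding complex, rose by 0.56 (SE 0.03), ZNF473, which binds the U7 particle, by 0.34, and UPF1 and LSM1, which act in histone mRNA decay, by 0.33 and 0.28. CCNE1, the cyclin that with CDK2 activates NPAT, rose by 0.22.

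General cleavage and polyadenylation factors, which make the tails that the libraries were selected on, counted 6 higher and 3 lower of 15 tested (60% called), with a median of 0.06. CSTF3 rose by 0.32 (SE 0.04), CLP1 by 0.32 (SE 0.05) and WDR33 by 0.26 (SE 0.04). Histone chaperones and HAT1, the enzyme that acetylates new H4, counted 9 higher and 6 lower of 23 tested (65.2% called), with a median of 0.04. IPO4, an importer of H3 and H4, rose by 0.38, while ANP32E changed by -0.24 and SUPT6H by -0.21. Genes of S phase and DNA replication counted 10 higher and 12 lower of 39 tested (56.4% called), with a median of -0.02, and 8 higher and 15 lower under median-ratio scaling. CDT1, a licensing factor, changed by -0.67 (SE 0.04), PRIM1, a primase subunit, by -0.60 (SE 0.04) and MCM6, a helicase subunit, by -0.46 (SE 0.03). These shares stand beside the 59.4% called over all genes.

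**Figure D5:**
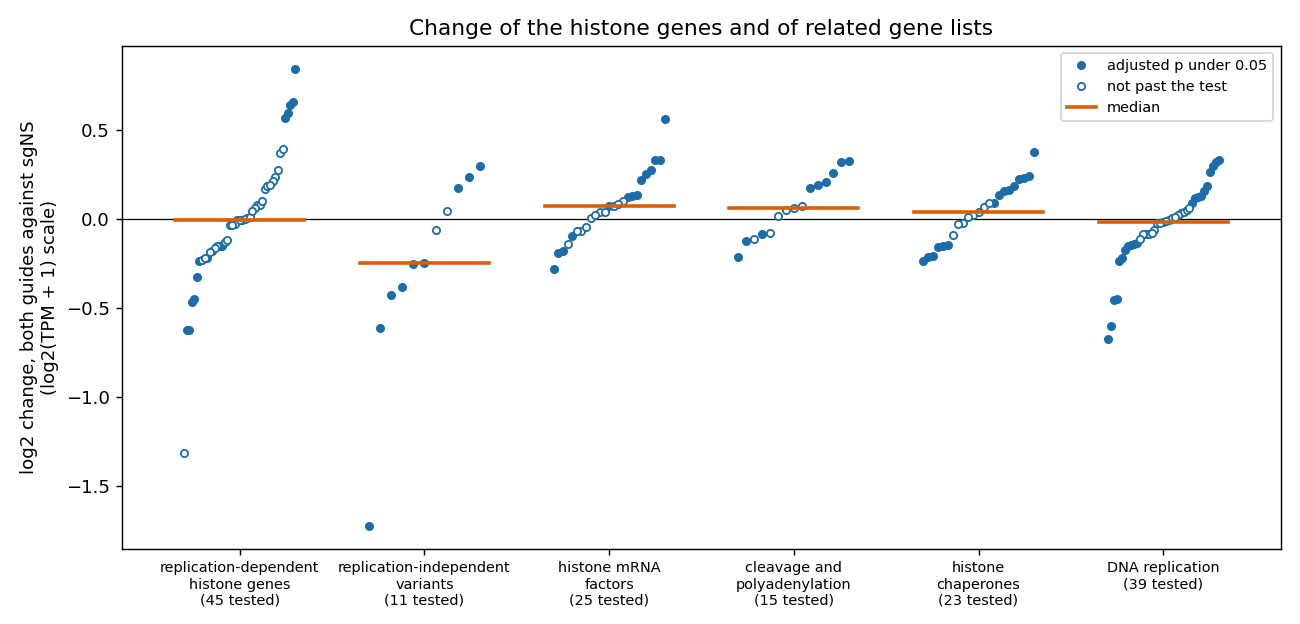
Change with both METTL1 guides pooled against the control, on the log2(TPM + 1) scale, for the 45 tested histone genes and 5 related lists. Each point is a gene, filled where the adjusted p was under 0.05, and the bar is the list's median, which lies at -0.25 for the replication-independent variants and between -0.02 and 0.07 for the others.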

How the data were processed

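RNA of the 6 libraries was sequenced after poly(A) selection with a stranded mRNA kit, per the labels' protocols. The authors deposited 1 table of TPM per gene, made with RSEM 1.2.31 on GRCh38, per the submitters' processing notes. The aligner, annotation and strand setting were not given in the sources used here. All 6 value columns matched 1 library each by name.

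The members and the gene lists were chosen with earlier results of these data known, so no p over a list or a sum is given. Members are the rows starting HIST1H to HIST4H, classed by the letters that follow. Every member with a mean of at least 1 TPM could be named, as could the 3 nearest below it, all tested variants and histone mRNA factors, and the 3 genes with the lowest p of each other list.

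Values were analysed as log2(TPM + 1) with limma 3.58.1 in R 4.3.3: genes averaging 1 TPM or more, all groups in 1 fit with no covariate, empirical Bayes with a variance trend (3 residual and 9.84 prior degrees of freedom) and Benjamini-Hochberg adjustment over 10911 genes. TPM carry no depth, so no counting interval can be given. Replicates at 100 TPM or more differed by a median of 2.42% to 3.15%. On simulated data for the comparison of the pooled guides over 10911 genes, 79.1% of genes changed 1.2-fold, 98.5% changed 1.5-fold and 100% changed 2-fold were called, and 14 of 10711 unchanged genes. The folds were set on the log2(TPM + 1) scale, in few genes drawn from all levels. Members had a median SE of 0.13 in this comparison, against 0.05 over all genes tested. These shares therefore do not carry over to the members. Stem-loops and shared 50-base words come from GENCODE 29 transcripts, and promoters from RefSeq (GRCh38.p14). The alternatives were other pseudocounts, filters and scalings, no variance trend, a replicate block, leaving out each library and fitting only the groups compared.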

Additional observations from a re-analysis of the deposited data

How the results depend on the processing

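Of 60 calls on members over the 4 comparisons, 21 held under every alternative run. In 1035 alternative values, 881 kept the call, 154 lost it and 0 changed sign. Filters moved the member counts most: with the guides pooled 9 of the members passed with no filter, members under 1 TPM included, and 8 at a mean of at least 5 TPM, where fewer members are tested, in place of 15. With sgMETTL1.3, 7 passed at 5 TPM in place of 14, with sgMETTL1.6 9 under either filter in place of 18, and between the guides 2 with no filter, 8 at 5 TPM and 5 with no variance trend in place of 13. Between the guides, 2510 genes became 1023 with no filter and 1409 with no variance trend; the cause was not tested. Leaving out 1 library at a time, where a lone library is assumed to vary like the other groups, gave 14 to 18 members with the guides pooled, 9 to 18 with sgMETTL1.3, 15 to 20 with sgMETTL1.6 and 6 to 15 between the guides, where the genes called ranged from 1215 to 2476. The log2 ratio of summed TPM, guides to control, ranged from -0.207 to -0.148 for H2B (main value -0.178), from -0.018 to 0.491 for H3 (0.214), from -0.118 to 0.108 for H4 (-0.009) and from -0.144 to -0.082 for all members (-0.111); without ribosomal protein genes it was -0.21 for H2B and -0.142 for all members.

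Scaling ended some calls on members. Quantile normalization ended the pooled calls on HIST2H2BE, HIST1H3H and HIST1H1D and the sgMETTL1.6 calls on HIST2H4A, HIST2H4B and HIST2H2BF, among others. Scaling also changed the split of calls over all genes. Between the guides, 789 higher and 1721 lower became 972 and 803 with quantile normalization, 1102 and 809 with median-ratio scaling and 942 and 978 without ribosomal protein genes; the medians of all genes moved by under 0.1. Replicate numbers are shared between groups, but nothing in the labels pairs them: deviations of same-numbered libraries correlated at -0.00501, 0.207 and 0.145 over the 3 pairs of groups. A fit with a replicate block gave 18, 17, 18 and 18 members for the pooled guides, sgMETTL1.3, sgMETTL1.6 and between guides. TPM hold no depth, so what depth limits cannot be given.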

Other observations

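Histone H2A and H2B genes often lie head to head and share the sequence between their starts. This look at neighbours was chosen after the values were seen and carries no test. In the annotation, 12 pairs of members start within 1000 bases of each other on opposite strands, and 11 of them join an H2A and an H2B gene. The missed HIST1H2BN and HIST1H2AK averaged 11.6 and 3.36 TPM, not within 2-fold. Among the 8 pairs so counted with both members at 1 TPM or more, 7 had means within 2-fold of each other. Of those, 1 is the pair of an H3 and an H2B gene, HIST1H3J and HIST1H2BO. The annotated start of HIST1H3J, at 27893106, lies inside HIST1H2AM (chr6:27892757-27893149). This pair thus largely repeats that of HIST1H2AM and HIST1H2BO, which is also among those within 2-fold. The limit of 1 TPM leaves out pairs of unequal level. HIST3H2A and HIST3H2BB averaged 3.41 and 0.937 TPM, a ratio of 3.64. HIST1H2BG and HIST1H2AE averaged 0.0667 and 0.0283 TPM, a ratio of 2.35. In 2 more pairs at least 1 member was listed at 0. Of the pairs within 2-fold, HIST1H2BC and HIST1H2AC averaged 25.9 and 42.4 TPM, HIST2H2BE and HIST2H2AC 10.4 and 9.13 TPM, HIST1H2BJ and HIST1H2AG 15.2 and 9.03 TPM, and HIST1H2AD and HIST1H2BF 3.02 and 2.87 TPM.

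The pair of HIST1H2BK and HIST1H2AH stood apart from the others. Their starts are 331 bases apart, and HIST1H2BK averaged 373 TPM against 1.67 TPM for HIST1H2AH, a ratio of 223. The promoter printed for HIST1H2BK lies between them. With the METTL1 guides HIST1H2BK was lower and HIST1H2AH higher, each in 4 of 4 guide libraries. RefSeq spans HIST1H2BK over 8566 bases, while the annotated GENCODE transcript holds 381 bases of coding sequence, and which transcript ends the authors counted is not given in the sources used here.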
